A study of Mus musculus with 141 samples.

Results

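Expression of 10 imprinted genes, *H19*, *Meg3*, *Dlk1*, *Grb10*, *Igf2r*, *Peg3*, *Plagl1*, *Cdkn1c*, *Zim1* and *Mest*, was followed in liver, lung and kidney. They were taken by name from the 24423 genes of each library, and all 10 were found. The Collaborative Cross (CC) is a panel of recombinant inbred mouse strains that descend from a common set of founder strains. A single male of each of 47 strains, 8 to 12 weeks of age, gave 1 library per tissue, so that n is 47 for the total RNA of each tissue. All mice shared the same NTP 2000 diet and spent 6 hours of each weekday in mesh chambers with clear air, and none received another agent. Strain and individual mouse cannot be told apart in this design. Each mouse came from an inbred strain, so its maternal and paternal copies of a gene carried largely the same sequence and the counts hold both together. The paper mentions loci at which variants still segregated among the ancestors of these mice.

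An imprinted gene is transcribed mainly from the copy inherited from 1 parent, which is fixed by DNA methylation laid down in the egg or the sperm. Imprinted genes lie in clusters that share a control region, and many of them act on growth before birth and are then shut down in most tissues. Among the genes followed here, *H19*, *Meg3*, *Igf2r*, *Cdkn1c*, *Zim1* and, in most tissues, *Grb10* are expressed from the maternal copy, whereas *Dlk1*, *Peg3*, *Plagl1* and *Mest* are expressed from the paternal copy.

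In the mouse assembly NCBIM37, the build to which the libraries were aligned, 4 of the genes lie on chromosome 7. *Zim1* (chr7:6628154-6649161) and *Peg3* (chr7:6656603-6683132) are neighbours on the minus strand that do not overlap. *H19* (chr7:149761434-149764048) and *Cdkn1c* (chr7:150644255-150646955) lie near the other end of that chromosome, in adjoining clusters. *Dlk1* (chr12:110691033-110701546) and *Meg3* (chr12:110779211-110809936) share a cluster on chromosome 12 with the noncoding genes *Rian* and *Mirg* and with *Rtl1*. *Igf2r* (chr17:12875272-12962530), *Grb10* (chr11:11830511-11938686), *Plagl1* (chr10:12810497-12851500) and *Mest* (chr6:30673547-30698457) each lie in a cluster of their own.

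Promoter windows from RefSeq (assembly GRCm38.p6, 250 bases before to 50 bases after the start of a transcript) were found for 8 of the 10 genes. Those of the genes whose values moved together over strains, *Meg3* with *Rian* and *Peg3* with *Zim1*, are shown with the window of *Igf2r*, the gene with the highest level. They are written 5′ to 3′ on the strand of the gene, and capitals mark each CpG, the dinucleotide at which DNA methylation is placed.
Meg3, chr12:109540746-109541045, plus strand: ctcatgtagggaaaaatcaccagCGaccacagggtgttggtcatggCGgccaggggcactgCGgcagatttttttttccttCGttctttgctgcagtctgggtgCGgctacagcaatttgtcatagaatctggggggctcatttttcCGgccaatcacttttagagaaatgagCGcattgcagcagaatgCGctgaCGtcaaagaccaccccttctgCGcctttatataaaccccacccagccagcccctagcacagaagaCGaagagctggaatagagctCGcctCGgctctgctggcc
Rian, chr12:109603695-109603994, plus strand: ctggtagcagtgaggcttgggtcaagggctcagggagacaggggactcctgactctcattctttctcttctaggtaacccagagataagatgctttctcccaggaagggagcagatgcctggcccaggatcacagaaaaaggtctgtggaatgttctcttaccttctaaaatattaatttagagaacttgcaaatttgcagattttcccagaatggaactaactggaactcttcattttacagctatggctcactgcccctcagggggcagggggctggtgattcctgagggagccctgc
Peg3, chr7:6730370-6730669, minus strand: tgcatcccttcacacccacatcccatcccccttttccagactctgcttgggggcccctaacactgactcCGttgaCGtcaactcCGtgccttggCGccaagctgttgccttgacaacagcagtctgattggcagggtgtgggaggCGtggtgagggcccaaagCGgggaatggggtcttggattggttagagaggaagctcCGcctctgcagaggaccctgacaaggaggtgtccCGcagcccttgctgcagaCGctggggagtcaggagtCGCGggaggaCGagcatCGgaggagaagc
Zim1, chr7:6696383-6696682, minus strand: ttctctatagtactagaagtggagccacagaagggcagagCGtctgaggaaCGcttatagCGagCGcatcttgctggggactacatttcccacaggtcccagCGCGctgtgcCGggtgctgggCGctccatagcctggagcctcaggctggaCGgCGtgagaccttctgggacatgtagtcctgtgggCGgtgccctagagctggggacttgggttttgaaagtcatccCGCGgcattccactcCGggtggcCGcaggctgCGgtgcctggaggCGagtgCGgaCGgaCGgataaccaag
Igf2r, chr17:12769657-12769956, minus strand: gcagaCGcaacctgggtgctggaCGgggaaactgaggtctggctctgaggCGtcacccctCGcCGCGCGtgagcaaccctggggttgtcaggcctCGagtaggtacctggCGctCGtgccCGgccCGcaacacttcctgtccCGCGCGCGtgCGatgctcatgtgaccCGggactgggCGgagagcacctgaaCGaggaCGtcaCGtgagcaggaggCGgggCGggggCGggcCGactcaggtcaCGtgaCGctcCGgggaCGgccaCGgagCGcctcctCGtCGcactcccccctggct

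The window of *Igf2r* held 34 CpGs, that of *Zim1* 20, those of *Meg3* and *Peg3* 13 each and that of *Rian* 0, beside a median of 7 over all 32851 windows. The letters TGCCGC, the core recognised by ZFP57, a protein that protects imprinted methylation, were searched on both strands. They occurred in the *Meg3* and *Zim1* windows, each on the reverse strand, and not in those of *Rian*, *Peg3* or *Igf2r*, and 11.6% of all windows held them. The letters TATAAA were found in the *Meg3* window alone among the 5, on each strand, and in 13.6% of all windows. The YY1 letters AAGATGGC, present in 2.75% of all windows, were in none of the 5. A second window of *Meg3* (chr12:109545148-109545447), not printed, held 1 CpG and none of the letters searched.

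The libraries held 1738046 to 42158454 counts (median 9043226), and a value of at most 3 counts was treated as unresolved, which covers counting error only. Each tissue carried its own markers: the 4 hepatocyte genes summed to a median of 101469 counts scaled to library size (CPM) in liver, the 4 genes of alveolar type 2 cells to 4993 CPM in lung and the 3 proximal tubule genes to 24961 CPM in kidney. The liver library of CC006 stood apart in its adrenal genes. Its 7 adrenal cortex genes summed to 3096 CPM against a median of 8.42 CPM over livers, and adrenal medulla and adipocyte genes were also at their liver maxima, 553 CPM and 99.4 CPM. For *Meg3*, the tissue changes of liver, the spread in liver and the correlation with *Rian* in liver are therefore also given without it. Other livers were at the maximum of other lists. Pancreas genes summed to 1164 CPM in CC068 (median 40.6) and proximal tubule genes to 1009 CPM in CC035 (median 39.3). Skeletal muscle genes summed to 1125 CPM in CC031 (median 2.10). Smooth muscle genes summed to 146 CPM in CC041 (median 14.6), which also had the highest cardiac muscle sum. The comparison of tissues was not refitted without these livers.

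Levels are given as TPM, the share of transcripts corrected for their length, which allows genes to be compared. *Igf2r* was the most abundant of the 10 genes in every tissue and *Dlk1* was essentially unread, with 1 count over all libraries. Of the 10 genes, 6 exceeded 1 CPM in at least 30% of the libraries and entered the comparison of tissues (*Igf2r*, *Peg3*, *Plagl1*, *Meg3*, *Grb10* and *Zim1*). *H19*, *Cdkn1c*, *Mest* and *Dlk1* did not.

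**Figure D1:**
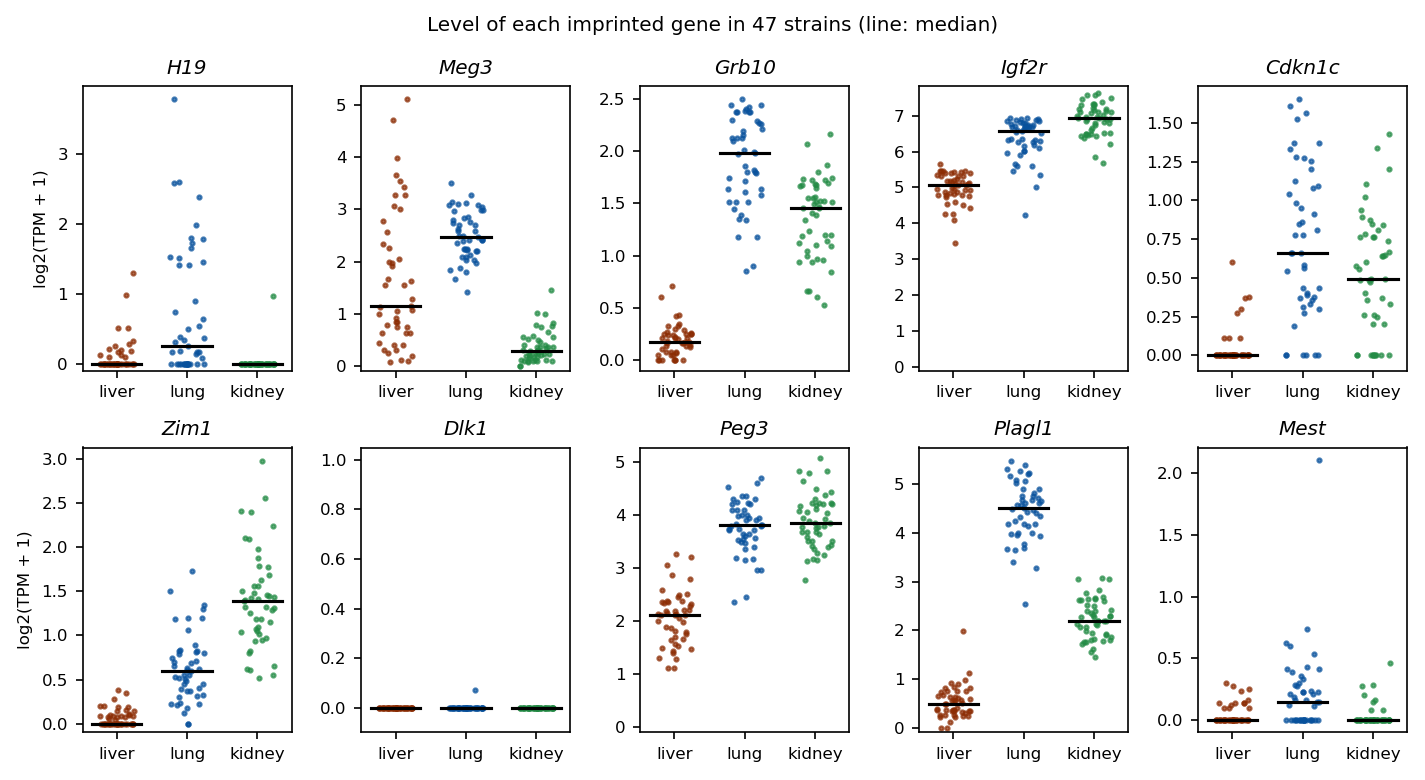
Level of each gene, as log2(TPM + 1) on the vertical axis, in liver, lung and kidney, with 1 point for each of 47 strains and a line at the median; the vertical scale differs between panels. *Igf2r* lies highest in all tissues, *Plagl1* stands out in lung and *Zim1* in kidney, *Meg3* covers its widest range in liver, and *Dlk1* lies at 0 apart from 1 lung library with 1 count.

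The genes were compared between tissues with limma-voom on counts scaled by TMM, with strain as a replicate block, and a gene was called at a Benjamini-Hochberg q-value of at most 0.1 and a change of at least 2-fold. Of the 6 genes tested, 3 were lower and 0 higher in liver than in lung, whereas of all 12127 genes tested 31.0% were lower and 23.9% higher. Between liver and kidney 4 were lower and 1 was higher in liver, against 20.8% and 15.6% of all genes. Between lung and kidney 2 were higher and 2 lower in lung, against 25.5% and 20.6% of all genes. The median log2 fold change of the 6 genes was -0.90 (liver against lung), -1.58 (liver against kidney) and -0.19 (lung against kidney), and over all genes tested it was -0.06, -0.0034 and 0.04. *Meg3* exceeded 1 CPM in 29 livers, 47 lungs and 5 kidneys, *Plagl1* in 16, 47 and 47, *Grb10* in 2, 46 and 43 and *Zim1* in 0, 13 and 38. These genes passed the filter through the tissues where they are high, so these counts describe the genes that passed and say nothing of all 10. In whole tissue, fewer cells of a type and less RNA per cell cannot be told apart.

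*Plagl1* encodes a zinc finger transcription factor that regulates other imprinted genes and restrains the cell cycle. Its TPM was 4.85 at the lowest, 21.9 at the median and 43.6 at the highest in lung, 1.74, 3.59 and 7.41 in kidney, and 0, 0.40 and 2.96 in liver. The ranges of lung and liver did not overlap, and lung was higher than kidney in 47 of 47 strains. *Plagl1* was 16.7-fold higher in lung than in liver (log2 fold change -4.06 for liver against lung, SE 0.11, q = 5.6e-57). It was 4.08-fold higher in lung than in kidney (log2 fold change 2.03, SE 0.11, q = 3.2e-34) and 4.09-fold higher in kidney than in liver (log2 fold change -2.03 for liver against kidney, SE 0.11, q = 5.5e-32). The order lung, kidney, liver held in all 11 alternative fits.

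*Peg3*, a zinc finger gene expressed in placenta, brain and muscle lineages, had the second highest median TPM of the 10 genes in liver and kidney. Its TPM was 1.17, 3.36 and 8.65 (lowest, median, highest) in liver, 4.12, 13.04 and 24.9 in lung and 5.83, 13.5 and 32.8 in kidney. The TPM ranges of lung and kidney overlapped widely, and kidney was above lung in 24 of 47 strains in TPM. On CPM kidney was above lung in 46 strains. *Peg3* was 2.19-fold higher in kidney than in liver (log2 fold change -1.13 for liver against kidney, SE 0.07, q = 5.6e-27). The differences of liver against lung (log2 fold change -0.48, SE 0.07, q = 6.9e-09) and of lung against kidney (-0.65, SE 0.07, q = 6.4e-14) were below 2-fold.

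*Zim1*, the zinc finger neighbour of *Peg3*, was detected mainly in kidney. Its TPM there was 0.43, 1.62 and 6.91, in lung 0, 0.51 and 2.31 and in liver 0, 0 and 0.30. More than 3 counts were found in 46 kidneys, 33 lungs and 0 livers, and the liver libraries together held 31 counts. Mean CPM was 2.05 ± 1.17 (SD, n = 47) in kidney, 0.447 ± 0.302 in lung and 0.104 ± 0.156 in liver. *Zim1* was lower in lung than in kidney (log2 fold change -2.12, SE 0.17, q = 5.2e-21) and lower in liver than in kidney (-3.46, SE 0.18, q = 9.1e-35) and lung (-1.33, SE 0.18, q = 4.7e-11). The fitted changes against liver depend on the small offset that the fit adds to such low counts.

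*Igf2r* encodes the receptor that takes up IGF2 for degradation and carries enzymes tagged with mannose 6-phosphate to lysosomes. Its TPM was 10.04, 32.9 and 49.3 in liver, 17.7, 94.0 and 122 in lung and 50.4, 120 and 195 in kidney. Its CPM was 179 ± 19.2 (SD, n = 47) in liver, 168 ± 14.1 in lung and 355 ± 70.2 in kidney, and on this scale kidney was above both other tissues in 47 of 47 strains. In TPM kidney was above liver in 47 strains and above lung in 39, with lung above kidney in 8. *Igf2r* was lower in lung than in kidney (log2 fold change -1.06, SE 0.04, q = 1.9e-49), but this difference was below 2-fold in 5 of 11 alternative fits, down to -0.54 on log2(TPM + 1). Liver against kidney gave a difference just short of 2-fold (-0.98, SE 0.04, q = 3.4e-46), which passed 2-fold in 6 of 11 alternative fits, from -1.05 without the low-count filter to -1.93 on log2(TPM + 0.1). Liver and lung differed by 0.09 on the log2 scale (SE 0.04, q = 0.023), and this small difference turned to -1.28 when total counts replaced TMM and to -1.36 on log2(TPM + 1).

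The reversal of *Igf2r* goes with a shift of the whole table. Without TMM the median log2 fold change of all genes moved by -1.38 for liver against lung, by -0.95 for liver against kidney and by 0.43 for lung against kidney. Relative to that shift, *Igf2r* in liver against lung stood at 0.10. The deposited TPM are not scaled by TMM, so the TPM ranges given also hold differences in scaling between libraries. The lung of CC015 had the lowest lung TPM of *Igf2r*, *Plagl1*, *Grb10* and *Meg3*. Its CPM was above the lung mean for *Meg3* (6.77 against 4.82) and *Grb10* (3.59 against 3.21). It was below the mean for *Igf2r* (139 against 168) and *Plagl1* (22.3 against 26.5).

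**Figure D2:**
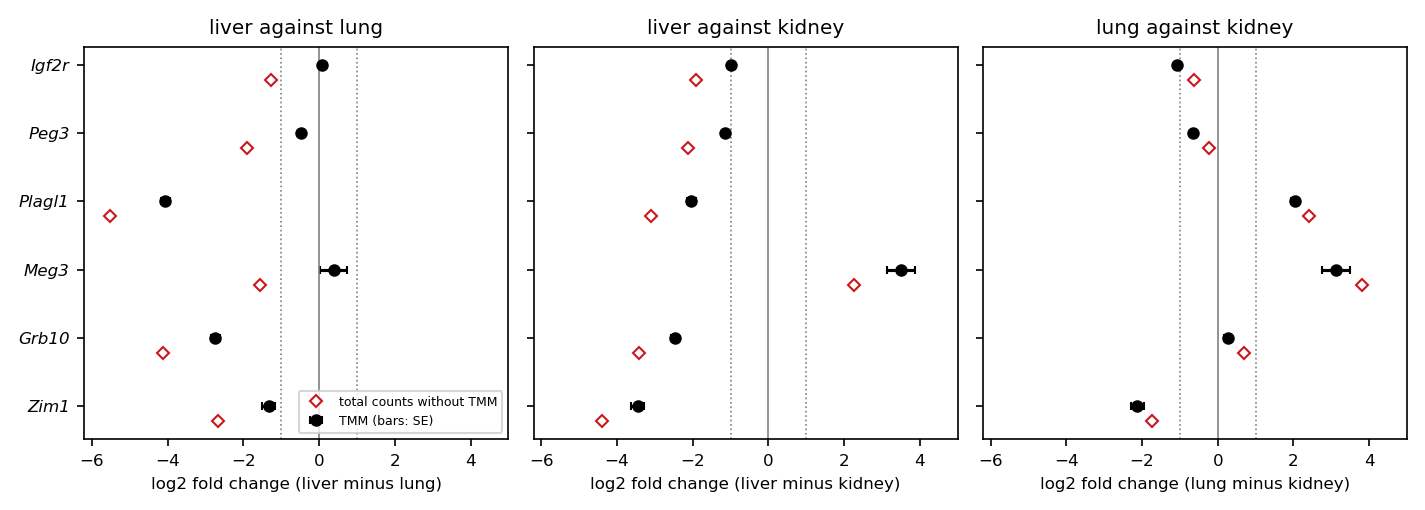
Log2 fold change (horizontal axis) of the 6 tested genes in each pair of tissues; black points are the TMM fit with bars of 1 SE, red diamonds the same fit on total counts without TMM, and dotted lines mark 2-fold. *Plagl1*, *Grb10* and *Zim1* are lower in liver than in lung and kidney on both scales, and *Igf2r* and *Meg3* change sign between the scales in liver against lung.

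*Grb10* encodes an adaptor that dampens insulin and growth factor signalling. Its TPM was 0.81, 2.95 and 4.64 in lung, 0.44, 1.74 and 3.47 in kidney and 0, 0.13 and 0.64 in liver, and only 14 livers held more than 3 counts. The highest liver value was that of CC006. The ranges of lung and liver did not overlap. *Grb10* was 6.66-fold higher in lung than in liver (log2 fold change -2.74 for liver against lung, SE 0.12, q = 6.7e-41) and 5.53-fold higher in kidney than in liver (-2.47 for liver against kidney, SE 0.12, q = 4.7e-37). Lung and kidney differed by 0.27 (SE 0.11, q = 0.023), below 2-fold.

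*Meg3* is a long noncoding RNA of the maternal chromosome. In kidney it was low in every strain, with a TPM of 0 at the lowest, 0.22 at the median and 1.72 at the highest. The kidney with the highest TPM, CC043, also had the highest *Grb10* TPM. Its adrenal medulla genes summed to 47.5 CPM, the kidney maximum, against a median of 0.11 CPM, and their part was not tested. The TPM of *Meg3* in lung was 1.68, 4.52 and 10.4. In liver its TPM ran from 0.05 over a median of 1.21 to 33.6, so that the liver range enclosed that of lung on both sides. *Meg3* was 8.72-fold higher in lung than in kidney (log2 fold change 3.12, SE 0.37, q = 3.4e-13) and 11.4-fold higher in liver than in kidney (3.51, SE 0.37, q = 2.5e-15). Liver and lung gave no call (0.38, SE 0.36, q = 0.30, and 0.27 without CC006). The sign of this difference was negative in several other fits, for example -0.42 without the replicate block. Lung was above liver in 29 of 47 strains on CPM and in 37 in TPM. The transcript length behind the TPM of *Meg3*, an average over its 3 transcripts, ranged from 1913 to 11498 bases over livers and from 3057 to 6050 bases over lungs, whereas CPM does not use it.

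Of the 4 genes that did not pass the filter, *H19*, a noncoding RNA abundant before birth, was found mostly in lung. More than 3 counts of *H19* were seen in 17 lungs, 5 livers and 0 kidneys, and the highest TPM were 12.8 in lung (CC021, 67 counts) and 1.46 in liver (CC031, 10 counts). *Cdkn1c*, an inhibitor of cyclin-dependent kinases, exceeded 3 counts in 24 lungs, 16 kidneys and 0 livers, with a median TPM of 0.58 in lung and 0.41 in kidney. *Mest*, a gene of mesodermal tissues with a hydrolase fold, exceeded 3 counts in 3 lungs, 1 liver and 1 kidney, and its highest TPM was 3.30 in the lung of CC037. *Dlk1*, a membrane protein that holds back adipocyte differentiation, had its 1 count in the lung of CC027. No fold change is given for these genes. *Igf2*, which shares a cluster with *H19*, did not exceed 0.54 TPM in any library.

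The number of transcripts annotated per gene differed among the 10. *Igf2r*, *Peg3*, *Plagl1* and *Zim1* had 1 transcript each, *H19*, *Grb10* and *Cdkn1c* had 2, *Meg3* and *Mest* 3 and *Dlk1* 5. Over all genes, 53.6% of the 18311 with 1 transcript had more than 3 counts in over 50% of the libraries, against 36.2% of the 6112 with more than 1. The authors kept uniquely aligned reads, and whether this lowers genes with several transcripts was not tested.

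Further imprinted genes were described from a list of 50, of which 49 were in the files and 24 passed the filter. Between liver and lung 6 were called higher and 8 lower in liver, between liver and kidney 4 higher and 8 lower, and between lung and kidney 7 higher and 5 lower in lung. Of all genes tested, 23.9% and 31.0%, 15.6% and 20.8%, and 25.5% and 20.6% were called in these directions. Their median log2 fold changes were -0.14, -0.35 and 0.41. *Slc38a4*, an amino acid transporter, was far higher in liver than in lung (7.50, SE 0.08) and kidney (8.73, SE 0.08). *Slc22a2*, an organic cation transporter next to *Igf2r*, was lower in liver (-8.90, SE 0.11) and in lung (-10.07, SE 0.11) than in kidney.

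*Ddc*, the aromatic amino acid decarboxylase gene beside *Grb10*, was higher in liver than in lung (log2 fold change 5.60) and lower in lung than in kidney (-5.02). *Slc22a18* followed the same pattern (4.74 and -6.09). No lung held more than 3 counts of either gene, so the fitted changes of both depend on the offset. *Phlda2*, a gene that limits placental growth, was lower in liver than in kidney (-4.46). *Kcnq1* (-2.92), *Peg13* (-2.85) and *Ndn* (-2.85) were lower in liver than in lung, and *Ndn* was also higher in lung than in kidney (2.52). *Airn*, the RNA that runs antisense to *Igf2r*, was lower in liver than in kidney (-3.09). *Rian* followed *Meg3*, with 3.75 for liver against kidney and 3.25 for lung against kidney. *Dcn* was higher in liver than in kidney (2.54), as was *Slc22a3* in lung compared with kidney (1.94). Each of these changes had a limma q-value below 0.1.

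The spread over strains was measured as the biological coefficient of variation (BCV), the variation between the libraries of different mice that is left after counting error. No batch was modelled, so it also holds any difference of sequencing batch or of tissue content. It is given as a description, with its percentile among the genes tested in that tissue, where the median gene had a BCV of 0.241 (liver), 0.236 (lung) and 0.229 (kidney). *Meg3* in liver and *Igf2r* in lung were at opposite ends.

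The BCV of *Meg3* was 1.22 in liver, higher than 98.5% of 9499 genes, and 0.349 in lung, at the 73.5th percentile. Without CC006 the liver value was 1.19. *Igf2r* had a BCV of 0.0902 in lung, at the 0.412th percentile of 12873 genes, of 0.129 in liver, at the 4.06th, and of 0.189 in kidney, at the 35.9th of 11209. Its CPM in lung stayed between 127 and 202 over the 47 strains. On total counts without TMM the BCV of *Igf2r* rose to 0.518 in lung and 0.478 in liver, at the 18.4th and 20.9th percentiles, where the median gene also rose to 0.557 and 0.511. *Meg3* in liver was at the 98.4th percentile on that scale.

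The other genes lay between. *Plagl1* had a BCV of 0.569 in liver, 0.299 in lung and 0.339 in kidney, at the 90.5th, 64.9th and 74.8th percentiles. In liver its highest value by far was that of CC041, 8.18 CPM (42 counts) against a mean of 1.62 CPM. That liver also had the highest sum of smooth muscle genes, and the spread was not refitted without it. *Peg3* had 0.355 in liver, 0.193 in lung and 0.277 in kidney. *Grb10* had 0.209 in lung and 0.277 in kidney, and *Zim1* had 0.479 in kidney, at the 88.1th percentile.

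**Figure D3:**
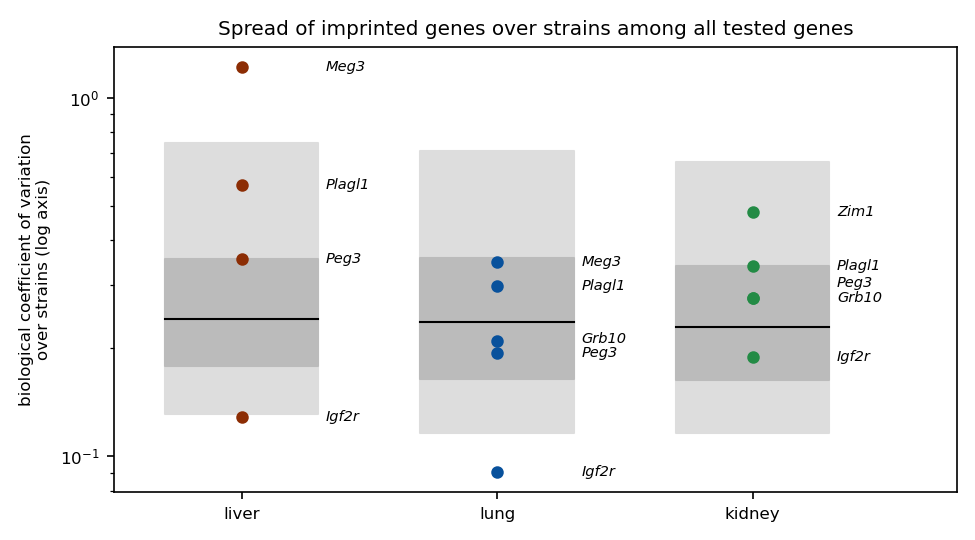
Biological coefficient of variation over 47 strains (vertical log axis) of each tested gene by tissue; the light bar spans the 5th to 95th percentile of all genes tested in the tissue, the dark bar the 25th to 75th, and the line is their median. *Meg3* in liver (1.22) lies above the light bar, and *Igf2r* lies below it in lung (0.0902) and just below it in liver (0.129).

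*Meg3* and *Rian*, a neighbour in its cluster, both covered a wide range in liver. On TPM the highest livers were CC007 (33.6 TPM, 392 counts), CC006 (25.4 TPM), CC011 (14.9 TPM), CC062 (11.7 TPM) and CC040 (10.7 TPM). On CPM scaled by TMM, CC029 (39.8 CPM, 8.75 TPM) stood between CC006 (45.9 CPM) and CC011 (35.5 CPM). The lowest on TPM were CC016 (0.05 TPM), CC055 (0.07 TPM) and CC053 (0.08 TPM), where 2 to 5 counts were read. On CPM the lowest were CC035 (0.24 CPM) and CC037 (0.29 CPM). In all, 11 livers were above 5 TPM and 19 below 1 TPM. *Rian*, a noncoding RNA that hosts small nucleolar RNAs, reached 53.7 TPM in CC007 and 30.5 TPM in CC006 and stood at 0.17 TPM, 2 counts, in CC016. *Mirg*, a microRNA host further along that exceeded 3 counts in 17 livers, had a TPM of 3.88 in CC007 and 2.28 in CC006 and of 0.24, from 1 count, in CC016.

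The correlation of *Meg3* with *Rian* over the 47 livers was r = 0.91 (Spearman rho 0.92) on rank inverse normal values, with a two-sided permutation p = 1e-05 for each, the smallest that 100000 permutations can give. Over all 27000 pairs of a followed gene with a gene tested in liver this gave q = 0.20, since 1 pair at that p cannot go below q = 0.27 on its own. With 5000000 permutations the pair had q = 0.0054 and was the 1 pair called, 0.0037% of those tested. Without CC006 and CC007, the livers farthest from the median, r was 0.90 (permutation p = 1e-05), and on log2 CPM r was 0.95. In lung the same genes had r = 0.49 (rho 0.50, permutation p = 5.6e-04, q = 0.16), and r = 0.39 without the 2 farthest strains. *Meg3* in liver correlated with none of the 16 marker lists, with r between -0.20 and 0.19 and the smallest q at 0.68 over 240 relations. Some of these lists were near 0 in most livers, with a median of 0 CPM for adrenal medulla and 0.66 CPM for adipocyte genes. A correlation of ranks cannot show the part of other tissue in single livers such as CC006, which was not tested.

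In kidney, *Peg3* and *Zim1* moved together. On the deposited TPM the kidney of CC053 had the highest level of both, 32.8 TPM of *Peg3* and 6.91 TPM of *Zim1*, and CC005 and CC044 were among the 5 highest for each. The correlation over strains was r = 0.65 (rho 0.63, permutation p = 1e-05, q = 0.020 over 53845 pairs, of which 0.683% were called). Without CC005 and CC044 it was r = 0.60 (permutation p = 4.0e-05). *Zim1* was the gene most like *Peg3* in kidney among 10771, and *Peg3* the gene most like *Zim1*. Both correlated negatively with the summed level of the 5 fibroblast genes in kidney, *Peg3* with r = -0.53 (rho -0.49, permutation p = 1.0e-04, q = 0.0080) and *Zim1* with r = -0.45 (rho -0.46, permutation p = 0.0014, q = 0.035). The values without the 2 kidneys of most extreme fibroblast level were r = -0.51 and r = -0.43. That list ranged from 49.1 to 777 CPM with 4 of its 5 genes above 3 counts in over 50% of the kidneys, and its part in the correlation of *Peg3* with *Zim1* was not tested.

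*Igf2r* in kidney correlated with *Slc22a2*, which lies in the same cluster (r = 0.57, rho 0.58, permutation p = 2.0e-05, q = 0.020). Without CC019 and CC040 r was 0.50 (permutation p = 4.6e-04). *Igf2r* also correlated with the 3 proximal tubule genes (r = 0.46, rho 0.51, permutation p = 0.0013, q = 0.034, and r = 0.43 without 2 strains), and the part of that list in the former relation was not tested. *Airn* had r = 0.44 with *Igf2r* in kidney (q = 0.12) and -0.08 in lung (q = 0.87). Strand-specific counting is not stated in the sources used here, and reads of *Airn* and *Igf2r* cannot be told apart where the genes overlap. *Plagl1* and *Hymai*, whose RefSeq windows overlap, had r = 0.50 in lung (q = 0.15), and their reads cannot be told apart where they overlap. In lung 0.0662% of 61930 pairs were called with 100000 permutations, and none joined a followed gene to a gene of its own cluster or to another of the 10. With 5000000 permutations, as used for the share in liver, the shares called were 0.0436% in lung and 0.923% in kidney.

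*H19* was set beside the skeletal muscle markers after its values had been seen, and did not pass the TPM filter used for the other relations, so its values are a description with no test. The 4 markers, *Acta1*, *Ckm*, *Myh4* and *Tnnt3*, summed to 1.995 to 225 CPM in lung (median 25.7). Over the 47 lungs, 17 of which held no read of *H19* and 17 more than 3, r was 0.77 and rho 0.81, and r was 0.78 without CC040 and CC042. In liver the markers summed to 0 to 1125 CPM (median 2.10), and *H19* was at 0 in 32 livers and above 3 counts in 5. The liver of CC031 had both the highest *H19* TPM and the highest muscle sum.

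**Figure D4:**
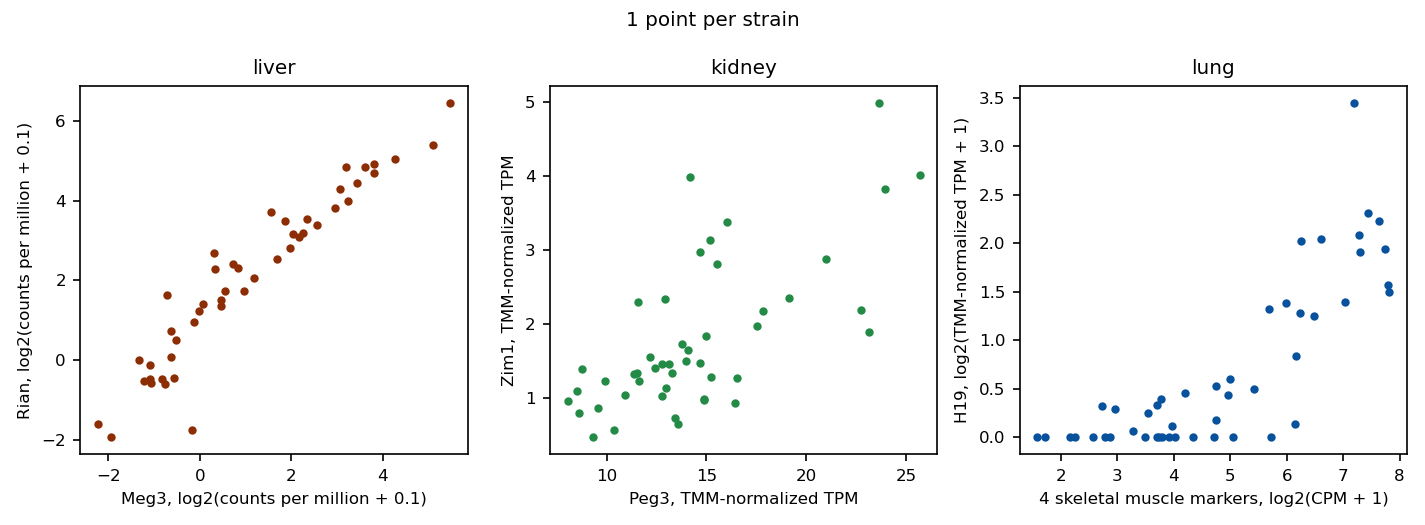
Values over 47 strains, 1 point per strain: *Meg3* against *Rian* in liver as log2(CPM + 0.1) on total counts, *Peg3* against *Zim1* in kidney as TMM-normalized TPM, and the summed level of 4 skeletal muscle markers as log2(CPM + 1) against *H19* as log2(TMM-normalized TPM + 1) in lung. *Meg3* and *Rian* follow a narrow band (r = 0.91), *Peg3* and *Zim1* a broader one (r = 0.65), and *H19* is near 0 in lungs with a low muscle sum.

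Of the 240 relations of the followed genes with marker lists, 11 had a q-value of at most 0.1. Of these, 2 were those of *H19*, which remain a description. The share of all genes that correlate with these lists was not measured, so the count says nothing particular of the followed genes. In lung *Grb10* correlated with the 5 fibroblast genes (r = 0.53, q = 0.0084, and r = 0.51 without the 2 farthest strains) and *Plagl1* with the 5 endothelial genes (r = 0.45, q = 0.034, and r = 0.32). *Meg3* in lung had r = 0.47 with the 5 adrenal medulla genes (q = 0.026), which summed to at most 3.55 CPM. In kidney *Plagl1* correlated with the podocyte genes (r = 0.50, q = 0.020), the mesothelium genes (r = 0.48, q = 0.026) and the endothelial genes (r = 0.42, q = 0.080). The podocyte and mesothelium lists share *Wt1*, so their relations are not separate. The podocyte list is also not particular to kidney, with a median sum of 203 CPM there and 294 CPM in lung. The part of these cells in the spread of the genes was not tested.

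Whether a strain that was high in 1 tissue was also high in another was asked for each gene whose TMM-normalized TPM exceeded 1 in over 50% of the libraries of both tissues. The 5 genes that met this, *Igf2r*, *Peg3*, *Plagl1*, *Meg3* and *Grb10*, gave 9 relations, none of which was called at q ≤ 0.1 by the permutation test. For liver and lung 0 of 3 genes were called, where 13.6% of 8517 genes were. For liver and kidney 0 of 2 were called, against 23.8% of 8483 genes, and for lung and kidney 0 of 4, against 17.6% of 10057 genes. At an unadjusted p under 0.05 there were 2 relations. *Peg3* had r = 0.32 between lung and kidney (rho 0.30, permutation p = 0.029, q = 0.14), and r = 0.28 without the 2 farthest strains. *Meg3* had r = -0.31 between liver and lung (rho -0.27, permutation p = 0.037, q = 0.18), lower than in all but 0.763% of genes, and r = -0.29 without the 2 farthest strains (CC006 and CC007). On TPM without TMM these values were 0.14 for *Peg3* and -0.01 for *Meg3*. With the total count regressed out they were 0.31 for *Peg3* (permutation q = 0.15) and -0.36 for *Meg3* (permutation q = 0.1002), neither of which was called.

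*Igf2r* gave r = 0.24 between liver and lung, 0.28 between kidney and liver and 0.10 between kidney and lung. *Peg3* gave 0.21 between liver and lung and 0.01 between kidney and liver. *Grb10* gave 0.19 and *Plagl1* -0.02 between kidney and lung. The median r of all genes was 0.14, 0.18 and 0.15 in these pairs of tissues. The 9 coefficients thus lay on either side of the median gene, 5 above and 4 below.

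The genes most like each followed gene over strains were listed as a description, in the tissue where its median TPM was highest. For *Igf2r* in kidney these were *Gusb*, which encodes beta-glucuronidase (r = 0.67), *Rnf11* (0.66) and *Rab38* (0.65). For *Peg3* in kidney they were *Zim1* (0.65), *A630066F11Rik* (0.56) and *Adgrf5* (0.52), and for *Zim1* in kidney *Peg3*, *Zfp738* (0.54) and *Exoc6b* (0.53). For *Plagl1* in lung they were *Dhcr7* (0.58), *Tmem233* (0.57) and *Arid1b* (0.56), and for *Meg3* in lung *Tacr1* (0.62) and *Aoc3* (0.60). For *Grb10* in lung they were *Alkbh2* (0.58), *1500011K16Rik* (0.54) and *Dalrd3* (0.54). In liver *Rian* was the gene most like *Meg3*. All coefficients are over 47 strains, whose libraries differ in depth, and are given here as a description.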

How the data were processed

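The series holds 1 RNA-seq library from liver, lung and kidney of 1 male mouse of each of 47 Collaborative Cross strains. According to the study's methods, the authors filtered reads by quality, aligned them with STAR 2.5.3a under RSEM to strain-specific pseudo-genomes of Build37 with RefSeq transcripts, and kept uniquely aligned reads. The files deposited by the authors give an expected count and a TPM value for each of 24423 genes. Groups were taken from the sample labels. The sequencing batches that the study describes are not given in the labels and were not modelled.

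The deposited expected counts were rounded to whole numbers. Genes above 1 CPM in at least 30% of libraries (12127) were tested with limma 3.58.1 (voom) after TMM scaling in edgeR 4.0.16 under R 4.3.3. Strain was a replicate block, since the 3 libraries of a strain come from the same mouse. A call needed a Benjamini-Hochberg q-value of at most 0.1 and a log2 fold change of 1 or more in either direction. For relations over strains, the deposited TPM, TMM-normalized within a tissue, were turned into normal scores of their ranks (Blom's formula, 0.375), for genes above 1 TPM in over 50% of libraries, with 100000 two-sided permutations and q-values over all genes or pairs tested. BCV is the square root of edgeR's tagwise dispersion. A floor of 3 counts was used. Sequences were copied from RefSeq tables. The tests were tested on simulated data.

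The genes and all lists were chosen with earlier results of these data known. Named were the 10 genes, neighbours in their clusters, of the further imprinted genes the 3 with the largest change in each direction of each pair of tissues, for each gene the 3 genes most like it in the tissue of its highest median TPM, and markers. A gene that this rule names for *Meg3* is not reported here. Alternatives were DESeq2 1.42.0 size factors and its test, total counts without TMM, edgeR's quasi-likelihood test, no low-count filter, no replicate block, log2(TPM + 1) and log2(TPM + 0.1), no fold threshold, and leaving out strains. Those without CC006 and with 5000000 permutations, and cluster relations on log2 CPM or with depth regressed out, were chosen after seeing the data.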

Additional observations from a re-analysis of the deposited data

How the results depend on the processing

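The direction and call of most values were the same in the other settings: of 198 refitted log2 fold changes of the 6 genes tested, 171 were the same, 9 passed the 2-fold threshold that had not, 7 no longer did and 11 reversed. All reversals concerned liver against lung. *Meg3*, which was not called there, turned to -1.56 on total counts without TMM, -0.015 with edgeR's quasi-likelihood test, -0.47 with the DESeq2 test, -0.42 without the replicate block, -0.86 on log2(TPM + 1) and -1.47 on log2(TPM + 0.1). *Igf2r* turned to -0.16 with DESeq2 size factors and with the DESeq2 test, -1.28 on total counts, -1.36 on log2(TPM + 1) and -1.39 on log2(TPM + 0.1). On total counts the median of all genes moved the same way by -1.38, and beyond this the cause was not tested.

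Of the genes followed, the 3 called in liver against lung became 6 on total counts and on log2(TPM + 0.1), where 71.4% and 73.4% of all genes were called against 55.0% before, and 5 without the low-count filter (53.6%) and without the fold threshold (93.5%). Those without the filter include *Dlk1*, which was called higher in liver although no liver held a read of it. The 5 called in liver against kidney became 8 without the filter (25.3% of all genes). The 4 called in lung against kidney became 2 on log2(TPM + 1) (43.5%). Of the further imprinted genes, the calls became 23 without the filter and 22 without the fold threshold in liver against lung, 24 without the fold threshold in liver against kidney, and 20 and 23 in lung against kidney. Without the fold threshold 87.9% and 90.8% of all genes were called in the latter pairs, and without the filter 7932 of 22652 genes in lung against kidney. Without the replicate block 3, 5 and 4 of the genes followed were called in the 3 pairs of tissues, so the pairing of tissues by mouse changed none of these counts. *Igf2r* in lung against kidney was below 2-fold with DESeq2 size factors and with the DESeq2 test (-0.93 each), on total counts (-0.63), and on log2(TPM + 1) and log2(TPM + 0.1) (-0.54 each). Of 84 refitted relations between genes within a tissue, 82 were the same. The other 2 were *Meg3* with *Rian*, called in liver with 5000000 permutations (q = 0.0054) and in lung on log2 CPM (q = 0.058). Of 42 refitted BCV values 13 moved, all on total counts without TMM, where the BCV of all genes rose too. They became 0.478 for *Igf2r*, 0.577 for *Peg3* and 0.670 for *Plagl1* in liver. In lung they became 0.542 for *Meg3*, 0.567 for *Grb10*, 0.518 for *Igf2r*, 0.512 for *Peg3* and 0.535 for *Plagl1*, and in kidney 0.536 for *Grb10*, 0.457 for *Igf2r*, 0.496 for *Peg3*, 0.456 for *Plagl1* and 0.645 for *Zim1*. Depth limits *H19*, *Cdkn1c*, *Mest* and *Dlk1* most: 3 counts stand for 0.0712 to 1.73 CPM in liver.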
